A study of Mus musculus with 12 samples.

Results

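Oxidative phosphorylation is carried out in the inner mitochondrial membrane by 5 protein complexes, and most of their subunits are encoded in the nucleus. The genes of these subunits were taken by symbol, among all genes measured by a single-symbol transcript cluster. Symbols had to start with Nduf, Sdha to Sdhd, Uqcr, Cox4 to Cox8 or Atp5, or to be Cyc1 or Cycs. Symbols marked ps, for pseudogenes, or Rik were left out. This gave 93 of 22180 named genes, of which 81 encode subunits or cytochrome c and 12 encode assembly factors, proteins that help to build a complex without being part of it. The 81 comprised 32 genes of complex I, 4 of complex II, 8 of complex III, 19 of complex IV, 17 of complex V and Cycs. RNA came from whole livers of 12 adult female C57Bl/6 mice of 12 to 14 weeks, 6 wild type (WT) and 6 with a knockout of Ppara (Ppara KO). No treatment was named for either genotype, and the construct of the knockout was not given in the sources used here. Each mouse gave 1 Affymetrix MoGene 2.0 ST array, on which short probes are summarised into 1 value per transcript cluster. In whole liver, fewer cells of a type and less RNA per cell cannot be told apart.

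Complex I takes electrons from NADH and complex II takes them from succinate, both passing them to ubiquinone. Complex III hands them to cytochrome c, complex IV gives them to oxygen, and complex V, the ATP synthase, uses the resulting proton gradient to make ATP. Ppara encodes PPARα, a fatty acid receptor of the nucleus that activates genes of fatty acid oxidation in hepatocytes, a pathway that feeds electrons into this chain. The comparison addresses whether mRNA of the chain itself differed between livers with and without the receptor.

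Values are log2 RMA values, and each difference is the Ppara KO mean minus the WT mean, on the log2 scale, with its limma standard error (SE). A gene was called at a Benjamini-Hochberg adjusted p under 0.05 over all 22180 genes. Probes differ in brightness, so levels were used across genes only to set filters and choose genes, not to say which gene is expressed more. Array medians lay between 4.13 and 4.17. The 8 hepatocyte markers had mean values from 11.70 to 11.83 in WT and from 11.68 to 11.91 in Ppara KO, and 0 of them were called. Ppara itself lay between 7.71 and 8.14 in WT and between 7.81 and 8.16 in Ppara KO, and where its probes lie relative to the disrupted part is not stated in the sources, so these values are no check of the genotype labels. Dbp, a clock output gene, lay between 5.99 and 7.09 in WT and between 9.05 and 10.17 in Ppara KO, and the part of clock timing in the results below was not tested. WT mice 1, 3 and 5 stood apart in the mean of 8 adipocyte markers, at 5.52, 6.32 and 6.35. This mean was 4.68 to 5.00 in the other WT mice and 4.47 to 4.76 in Ppara KO. In WT mouse 1 the distance was clear for Cidec, Fabp4 and Retn. Its Adipoq, Lep, Lipe, Lpl and Plin1 lay close to WT mouse 2 or 6, with Adipoq at 4.19 beside 4.15 in WT mouse 6. WT mouse 3 had the lowest Lep of the WT mice, at 2.73. Of these 8 markers 3 were called lower in Ppara KO, Adipoq, Lpl and Lipe, and 0 higher. Of 4 cholangiocyte markers Krt19 and Sox9 were called lower, at -0.26 ± 0.070 and -0.39 ± 0.11 (SE, n = 6 each), with list means from 4.69 to 5.05 in WT and from 4.50 to 5.02 in Ppara KO. Of 6 macrophage markers 0 were called, and their mean was 8.35 in Ppara KO mouse 2 and between 7.38 and 7.74 in the other mice. The part of these cell types in the results below was not tested.

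Most subunit mRNAs differed little between the genotypes. Of the 81 genes, limma called 1 higher and 2 lower in Ppara KO (3.7%), where 10.2% of all named genes were called, 4.46% higher and 5.77% lower. The median difference of the 81 genes was -0.02, beside 0.01 for all named genes, and the median absolute difference was 0.07, beside 0.10. Of the 81, 13 (16.0%) had an unadjusted p under 0.05, beside 22.9% of all named genes, and 38 lay above 0. The values of the genotypes did not overlap for 4 subunit genes (4.94%), beside 6.51% of all named genes.

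Except for dim genes, the intervals show how large a difference these arrays could have missed. RMA compresses differences of dim genes, so a narrow interval there does not bound the change in mRNA. The 95% interval lay within a 1.2-fold change in either direction for 49 of the 81 genes (60.5%), beside 32.5% of all named genes, and within a 1.5-fold change for 80 (98.8%), beside 91.7%. The exception was Cox8b, whose interval reached from -1.0004 to 0.07. Subunit genes were also measured with a smaller error than most, with a median SE of 0.071 beside 0.093, and 72 of the 81 lay at or above the median level of all named genes. Among all genes at or above that level 17.5% were called, and 36.5% and 89.2% of their intervals lay within 1.2-fold and 1.5-fold. The 49 subunit genes within 1.2-fold include the dim Cox6b2, Cox7b2 and Cox8c.

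**Figure D1:**
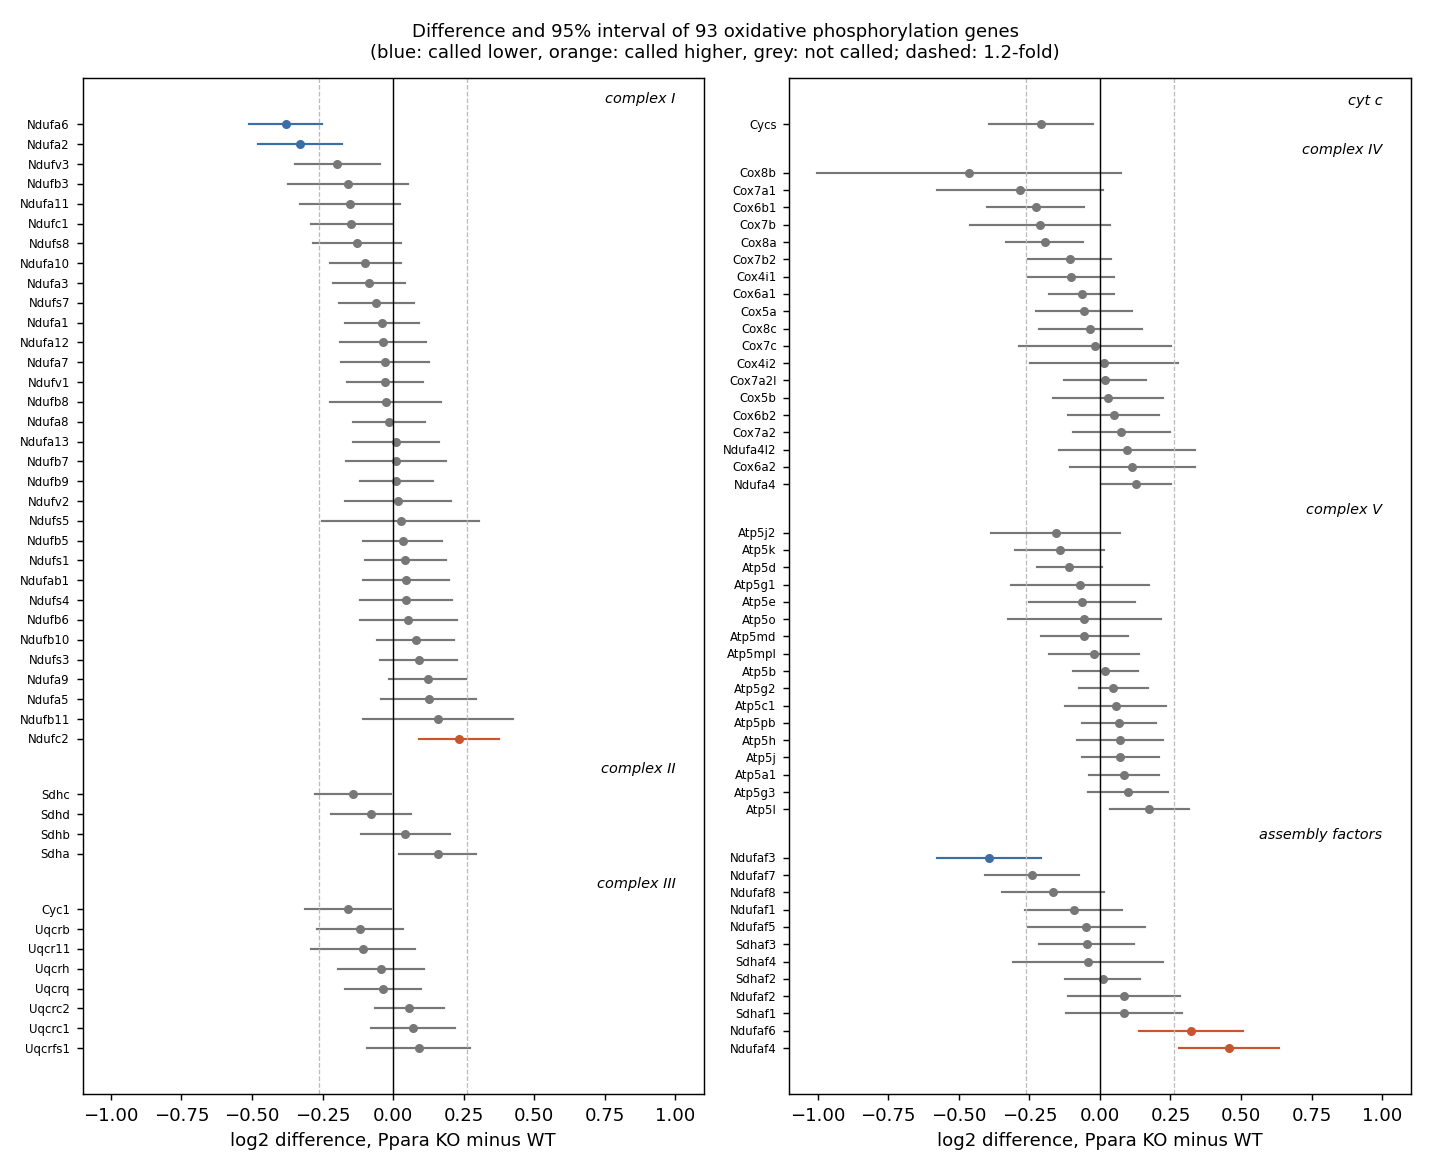
Log2 difference (Ppara KO minus WT, horizontal axis) of each of the 93 genes, 1 row per gene grouped by complex, as points with their 95% limma intervals from 6 mice per genotype. Blue marks genes called lower, orange genes called higher and grey genes not called, and dashed lines mark 1.2-fold; the intervals of 91 genes lie within 1.5-fold.

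Of the 32 complex I genes, 3 were called (9.38%), Ndufa6 and Ndufa2 lower and Ndufc2 higher. This stands beside 10.2% of all named genes and 17.5% of those at or above the median level, where 31 of the 32 lay. The median difference of complex I was -0.002, and 21 of the 32 intervals lay within 1.2-fold.

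Ndufa6, an accessory subunit of the LYR motif family that binds the mitochondrial acyl carrier protein, had the clearest difference. In WT its values ran from 9.11 through a median of 9.19 to 9.34, and in Ppara KO from 8.73 through 8.81 to 8.90. All 6 Ppara KO mice lay below all 6 WT mice. The means were 9.20 ± 0.079 in WT and 8.81 ± 0.063 in Ppara KO (SD, n = 6 each), a difference of -0.38 ± 0.061 (SE) or 1.30-fold lower, with a limma adjusted p of 0.000967. Ndufa6 kept its call without WT mice 1, 3 and 5, at -0.33 and a limma adjusted p of 0.0323.

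Ndufa6 lies on the same chromosome as Ppara, 62 measured genes before it in the RefSeq gene order. Of the 100 measured genes on each side of Ppara, a window chosen after the values were seen, 38 of 200 (19.0%) were called, 25 lower and 13 higher, beside 10.2% of all named genes. The other members on that chromosome lay farther off, Cyc1 227 and Ndufb9 343 measured genes before Ppara and Atp5g2 244 after it, and 0 of these 3 were called. The part of position in the Ndufa6 difference was not tested.

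Ndufa2, an accessory subunit of the NADH-oxidising arm, ran from 7.66 through a median of 7.83 to 7.99 in WT and from 7.36 through 7.50 to 7.61 in Ppara KO. The genotypes did not overlap, although the lowest WT mouse and the highest Ppara KO mouse lay close together. The difference was -0.33 ± 0.069 (SE, n = 6 each), 1.26-fold lower, with a limma adjusted p of 0.00659. Without WT mice 1, 3 and 5 it was -0.26, and the limma adjusted p rose to 0.114.

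Ndufc2, an accessory subunit of the membrane arm, ran from 8.27 through a median of 8.44 to 8.53 in WT and from 8.58 through 8.64 to 8.77 in Ppara KO. Every Ppara KO mouse lay above every WT mouse. The difference of 0.23 ± 0.067 (SE, n = 6 each), 1.18-fold higher, had a limma adjusted p of 0.0368. This call was lost without any 1 of WT mice 3, 4, 5 and 6 or Ppara KO mice 1, 2, 3 and 6, with differences between 0.20 and 0.24 and limma adjusted p-values between 0.05317 and 0.0813. Without WT mice 1, 3 and 5 together the difference was 0.26, with a limma adjusted p of 0.118.

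**Figure D2:**
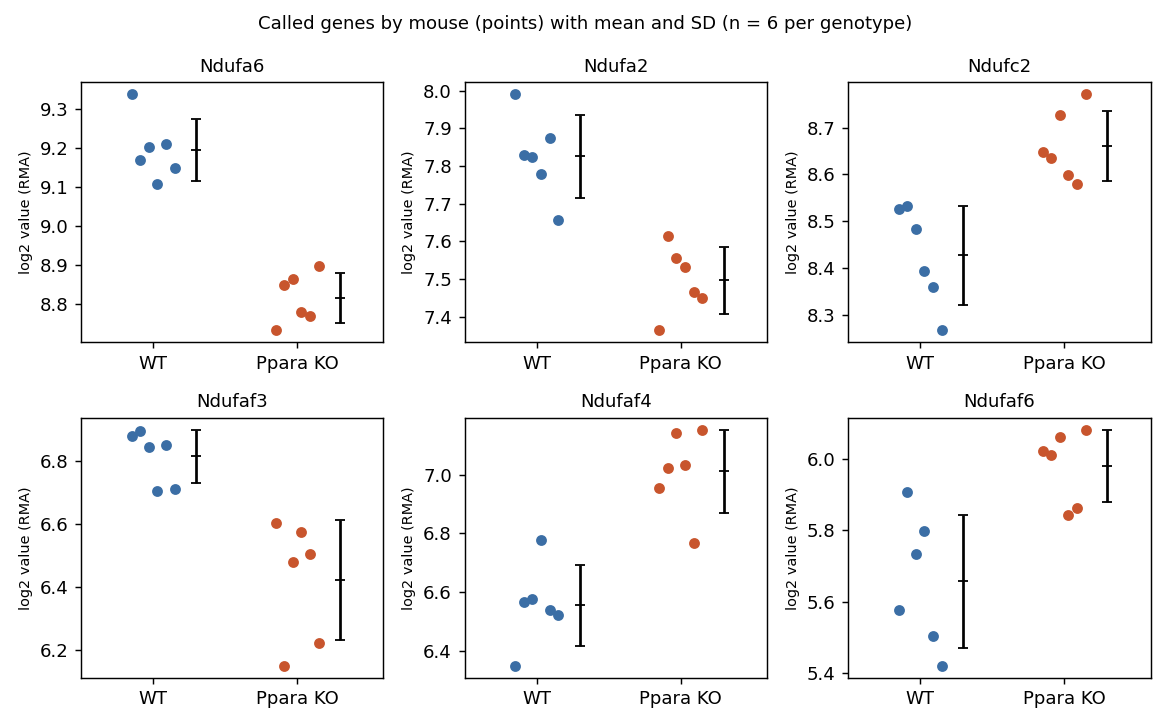
Log2 values of the 6 called genes in each mouse (points, vertical axis) by genotype, with the mean and SD of 6 mice as a bar beside the points. The genotypes do not overlap for Ndufa6, Ndufa2, Ndufc2 and Ndufaf3, and 1 WT mouse reaches into the Ppara KO range for Ndufaf4 and for Ndufaf6.

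The other 29 complex I genes were not called. Ndufv3, an accessory subunit beside the NADH-binding site, came nearest, from 7.03 to 7.18 in WT and from 6.66 to 7.05 in Ppara KO, with a difference of -0.20 ± 0.071 (SE, n = 6 each) and a limma adjusted p of 0.0967. Ndufb9, an accessory subunit of the membrane arm, had values from 10.77 to 10.99 in WT and from 10.78 to 10.94 in Ppara KO, and its difference was 0.01 ± 0.060. Ndufs7, which carries the last iron-sulphur cluster before ubiquinone, differed by -0.06 ± 0.062, and the accessory subunit Ndufa3 by -0.08 ± 0.060. Ndufb3, also of the membrane arm, had a wider error, at -0.16 ± 0.10.

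Of the 4 complex II genes, 0 were called. Sdha, the flavoprotein that oxidises succinate, ran from 10.13 to 10.38 in WT and from 10.30 to 10.53 in Ppara KO. Its difference was 0.16 ± 0.064 (SE, n = 6 each), with a limma adjusted p of 0.149. Sdhc, a membrane anchor, ran from 9.08 to 9.25 in WT and from 8.92 to 9.15 in Ppara KO, a difference of -0.14 ± 0.063 with a limma adjusted p of 0.188. The genotypes overlapped in both genes, whose estimates had opposite signs. Sdhb, the iron-sulphur subunit, differed by 0.04 ± 0.074 and Sdhd, the other anchor, by -0.08 ± 0.066.

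Of the 8 complex III genes, 0 were called, with a median difference of -0.04. The core proteins Uqcrc1 and Uqcrc2 differed by 0.07 ± 0.070 and 0.06 ± 0.058 (SE, n = 6 each). Cyc1, the cytochrome c1 that passes electrons on to cytochrome c, ran from 8.01 to 8.37 in WT and from 7.93 to 8.10 in Ppara KO, a difference of -0.16 ± 0.071 with a limma adjusted p of 0.188. Uqcrb, a small ubiquinone-binding subunit, differed by -0.12 ± 0.071.

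Cycs, the mobile carrier cytochrome c, ran from 9.64 through a median of 9.78 to 9.995 in WT and from 9.31 through 9.64 to 9.74 in Ppara KO. WT mouse 1 was the highest and Ppara KO mice 1 and 5 were the lowest, and the genotypes overlapped. The difference of -0.21 ± 0.086 (SE, n = 6 each) had a limma adjusted p of 0.153. Cycs had 5 clusters, all with differences below 0, from -0.10 to -0.31, and 0 of them were called. The clusters at -0.31 had the same mean level (7.39) and SE (0.103), so the 5 do not count as separate measurements. The cluster used sat among clusters of another chromosome.

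Of the 19 complex IV genes, 0 were called, with a median difference of -0.03. Cox8a, the widely expressed form of a small membrane subunit, ran from 10.01 through a median of 10.09 to 10.31 in WT and from 9.85 through 9.92 to 10.001 in Ppara KO. All 6 Ppara KO values lay below all WT values, by a narrow margin. The difference of -0.20 ± 0.065 (SE, n = 6 each) had a limma adjusted p of 0.0695. Cox6b1, the widely expressed form of a subunit at the contact between the monomers of a complex IV dimer, ran from 8.78 to 9.27 in WT and from 8.66 to 8.90 in Ppara KO, a difference of -0.23 ± 0.081 with a limma adjusted p of 0.0931. Both genes passed the threshold when the limma variance prior followed the level of the gene and when only genes at or above the median level were tested, as the closing section lists.

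Complex IV has forms of several subunits that are used in different tissues, and 0 of them were called. Among the widely expressed forms, Cox4i1 differed by -0.10 ± 0.071, Cox6a1 by -0.06 ± 0.054, Cox7a2 by 0.08 ± 0.081 and Cox7b by -0.21 ± 0.12 (SE, n = 6 each). The lung form Cox4i2 differed by 0.02 ± 0.12, the heart and muscle form Cox6a2 by 0.11 ± 0.10, and the testis forms Cox6b2, Cox7b2 and Cox8c by 0.05 ± 0.075, -0.11 ± 0.069 and -0.03 ± 0.085. In that order, the WT means of these forms were 3.90, 4.38, 3.69, 1.71 and 2.55, beside array medians from 4.13 to 4.17. RMA compresses differences of dim genes, so small values here do not show unchanged mRNA. Cox7a2l, which takes part in joining complexes III and IV, differed by 0.02 ± 0.068. Ndufa4, once assigned to complex I and now to complex IV, ran from 10.09 to 10.31 in WT and from 10.28 to 10.33 in Ppara KO, a difference of 0.13 ± 0.058 with a limma adjusted p of 0.202, and its paralogue Ndufa4l2 differed by 0.09 ± 0.11.

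The heart, muscle and brown fat forms Cox8b and Cox7a1 had wide spreads. Cox8b was 4.37 in WT mouse 3 and 4.50 in WT mouse 5, while the other 4 WT mice lay between 2.77 and 3.29 and the Ppara KO mice between 2.80 and 3.38. Its difference was -0.46 ± 0.25 (SE, n = 6 each), with a limma adjusted p of 0.300, and it was 0.04 without WT mice 1, 3 and 5. The mean of the adipocyte markers was highest in the same mice, WT 5 and WT 3. Of 4 brown adipocyte markers 1, Ppargc1b, was called higher in Ppara KO and 0 lower. Their mean was 4.68, 5.10, 4.76 and 4.23 in WT mice 1, 3, 5 and 6, 3.98 and 3.89 in WT mice 2 and 4, and between 4.08 and 4.18 in Ppara KO. Ucp1, the uncoupling protein of brown fat, was 4.95, 5.36, 5.32 and 4.27 in WT mice 1, 3, 5 and 6, 3.62 and 2.93 in WT mice 2 and 4, and between 3.31 and 3.66 in Ppara KO, with a limma adjusted p of 0.106. In WT mice 1 and 6, where Ucp1 also exceeded every Ppara KO mouse, Cox8b was 3.29 and 3.23, within the Ppara KO range. The 8 muscle markers had means from 3.96 to 4.15 in WT and from 3.93 to 4.31 in Ppara KO, and 0 were called. Cox7a1 followed another pattern, highest in WT mouse 1 at 5.09 and otherwise between 4.37 and 4.76 in WT and 4.07 and 4.79 in Ppara KO, with a difference of -0.28 ± 0.14 that was -0.16 without WT mice 1, 3 and 5.

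**Figure D3:**
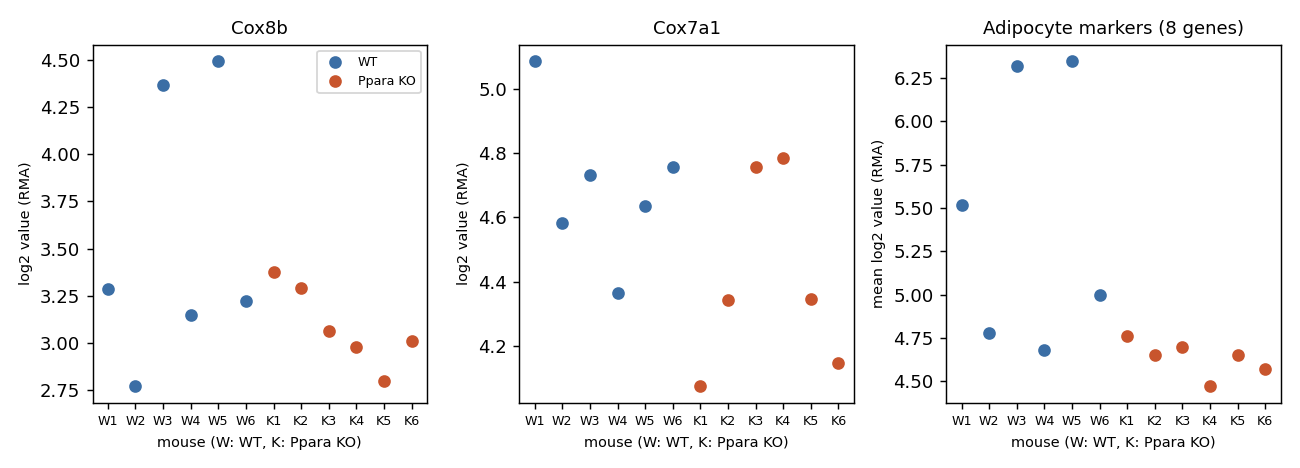
Log2 values of Cox8b (left) and Cox7a1 (middle) and the mean log2 value of 8 adipocyte markers (right) in each of the 12 mice, blue for WT and orange for Ppara KO. Cox8b is above 4 in WT mice 3 and 5 alone, which also have the highest adipocyte means, while Cox7a1 is highest in WT mouse 1.

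Of the 17 complex V genes, 0 were called, with a median difference of 0.02, and 12 intervals lay within 1.2-fold. The catalytic subunit Atp5b ran from 11.39 to 11.52 in WT and from 11.42 to 11.50 in Ppara KO, a difference of 0.02 ± 0.054 (SE, n = 6 each) with a 95% interval from -0.10 to 0.14. Its partner Atp5a1 differed by 0.08 ± 0.059. The c subunit of the rotating ring is made from 3 genes, and Atp5g1, Atp5g2 and Atp5g3 differed by -0.07 ± 0.11, 0.05 ± 0.057 and 0.10 ± 0.066. The largest estimates were those of Atp5l, the membrane subunit g, at 0.18 ± 0.066 with a limma adjusted p of 0.114, and Atp5j2, the membrane subunit f, at -0.16 ± 0.11. Atp5h, the stalk subunit d, differed by 0.07 ± 0.071.

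The complexes were also compared mouse by mouse, as the median deviation of their subunits from each gene's mean over the 12 arrays. For all 81 genes this median was 0.01 ± 0.061 in WT and -0.01 ± 0.035 in Ppara KO (SD, n = 6 each). The genotypes overlapped in every complex. WT mouse 1 was the highest of the 12 in complexes I, III, IV and V, at 0.125, 0.137, 0.080 and 0.089.

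**Figure D4:**
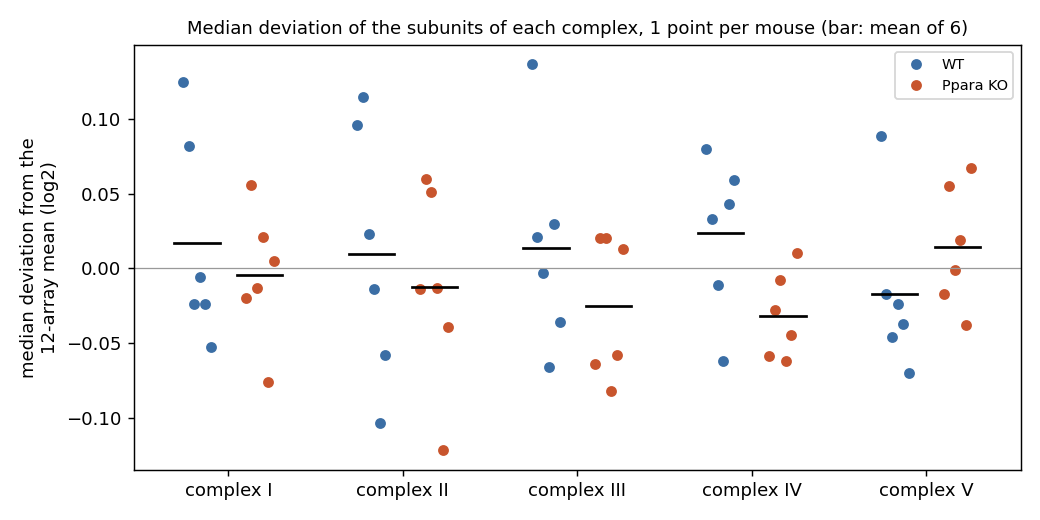
Median deviation of the subunits of complexes I to V from each gene's 12-array mean (log2, vertical axis), 1 point per mouse with the mean of 6 mice as a bar, blue for WT and orange for Ppara KO. The genotypes overlap in all 5 complexes, and WT mouse 1 is at the top in complexes I, III, IV and V.

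Of the 12 assembly factors, 2 were called higher and 1 lower in Ppara KO (25.0%), all of them factors of complex I. This stands beside 10.2% of all named genes and 17.5% of those at or above the median level, where 11 of the 12 lay. Ndufaf3 and Ndufaf4 bind each other and act early, on the part of complex I that reduces ubiquinone, and their differences had opposite signs. Ndufaf3 ran from 6.71 through a median of 6.85 to 6.90 in WT and from 6.15 through 6.49 to 6.61 in Ppara KO. The genotypes did not overlap, and the difference was -0.39 ± 0.086 (SE, n = 6 each), 1.31-fold lower, with a limma adjusted p of 0.00866. Ndufaf4 ran from 6.35 through 6.55 to 6.78 in WT and from 6.77 through 7.03 to 7.15 in Ppara KO. WT mouse 4 lay just above Ppara KO mouse 5, and the difference was 0.46 ± 0.083, 1.37-fold higher, with a limma adjusted p of 0.00236.

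Ndufaf6, a complex I factor related to phytoene synthases, ran from 5.42 through a median of 5.66 to 5.91 in WT and from 5.84 through 6.02 to 6.08 in Ppara KO. WT mouse 2 lay within the Ppara KO range, and the difference was 0.32 ± 0.087 (SE, n = 6 each), 1.25-fold higher, with a limma adjusted p of 0.0280. The Ndufaf6 call was lost without any 1 of WT mice 1, 5 and 6 or Ppara KO mice 1, 2, 3 and 6, with limma adjusted p-values between 0.0533 and 0.0618. Without WT mice 1, 3 and 5 together, 0 of the 12 factors were called: Ndufaf3 differed by -0.35 (limma adjusted p 0.121), Ndufaf4 by 0.39 (0.0543) and Ndufaf6 by 0.27 (0.220). Among the factors not called, Ndufaf7, a methyltransferase that modifies a complex I core subunit, differed by -0.24 ± 0.079 with a limma adjusted p of 0.0662, Ndufaf8 by -0.17 ± 0.084, Ndufaf1, which acts on the membrane arm, by -0.09 ± 0.081, and Sdhaf2, which helps to attach the flavin of Sdha, by 0.01 ± 0.063.

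Promoter sequence is shown for Ndufa6 and for the Ndufaf3 and Ndufaf4 pair because they carried called differences, and for Cycs because the cytochrome c gene is the textbook target of NRF1, a transcription factor of many respiratory chain genes. The stretches are from RefSeq (GRCm38.p6), 5′ to 3′ on the strand of the gene and upstream of its start, and capitals mark the NRF1 motif GCGCATGC on either strand. They lie at chr15:82354317-82354424 on the minus strand for Ndufa6, chr4:24897920-24898027 on the plus strand for Ndufaf4, chr9:108567437-108567546 on the minus strand for Ndufaf3 and chr6:50566572-50566679 on the minus strand for Cycs.
Ndufa6: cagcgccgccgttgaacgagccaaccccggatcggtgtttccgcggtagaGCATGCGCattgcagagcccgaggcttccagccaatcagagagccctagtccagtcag
Ndufaf4: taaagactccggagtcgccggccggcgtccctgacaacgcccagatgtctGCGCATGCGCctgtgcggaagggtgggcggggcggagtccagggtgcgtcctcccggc
Ndufaf3: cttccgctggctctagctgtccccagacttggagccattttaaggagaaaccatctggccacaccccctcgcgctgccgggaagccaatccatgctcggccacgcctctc
Cycs: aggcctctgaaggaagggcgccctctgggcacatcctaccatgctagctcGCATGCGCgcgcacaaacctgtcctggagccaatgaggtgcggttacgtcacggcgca
Ndufaf4 holds 2 overlapping matches in the stretch shown, Ndufa6 and Cycs 1 each, and Ndufaf3 none. The letters thus occurred beside a gene called lower, a gene called higher and a gene not called. A match is a description of letters and not a measured binding site. The Ndufc2 window also held no match, and no window was used for Ndufa2 and Ndufaf6.

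Windows from 250 bases before to 50 after the start were searched on both strands in 71 windows of 66 subunit genes and in all 32851 windows of the table, which were not matched for base composition. The NRF1 motif was in 11 of the 71 (15.5%), beside 2.71% of all windows. The letters CCGGAAG, bound by GABPA, were in 17 (23.9%), beside 8.86%, and AAGATGGC, bound by YY1, in 9 (12.7%), beside 2.75%. TCAAGGTCA, the site of the estrogen-related receptors, was in 2 (2.82%), beside 0.423%, and the E-box CACGTG, used by clock factors among others, in 7 (9.86%), beside 7.15%. The direct repeat of AGGTCA with any 1 base between the copies, an exact form of the PPAR element, was in 0 of the 71 and in 13 of all windows (0.0396%).

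Genes that build, supply or regulate the complexes were counted in 10 lists. Of 20 measured assembly factors of complex IV, 2 were called higher and 5 lower (35.0%), beside 10.2% of all named genes and 17.5% of those at or above the median level, where all 20 lay. Taco1, a translational activator of mitochondrial COX1, differed by -0.30 ± 0.068, the copper chaperone partner Cox19 by -0.34 ± 0.089, and Cox14 and Cox16 by -0.32 ± 0.086 and -0.27 ± 0.077 (SE, n = 6 each). Cox18, which inserts a COX2 segment into the membrane, differed by 0.33 ± 0.084, and Lrpprc, which stabilises mitochondrial mRNA, by 0.22 ± 0.062. Higd1a, at -0.23 ± 0.071, was the seventh called. With each mouse left out in turn, Taco1 and Cox18 were called in all 12 fits, Cox19 in 11 (lost without WT mouse 6), Cox14 in 7, Lrpprc in 5, Cox16 in 3 and Higd1a in 2, without a change of sign. Of the 10 other complex I factors only Lyrm2 was called, at -0.32 ± 0.070, and among 6 complex III and 4 ATP synthase factors 0 were called.

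Of 13 regulators of mitochondrial biogenesis, 4 were called higher and 1 lower (38.5%, beside 10.2% of all named genes and 17.5% of those at or above the median level, where all 13 lay). The coactivators Ppargc1b and Pprc1 rose by 0.39 ± 0.096 and 0.32 ± 0.082 (SE, n = 6 each), and Yy1 by 0.25 ± 0.065. The paralogues Tfb2m, which starts transcription of mitochondrial DNA, and Tfb1m, which methylates mitochondrial ribosomal RNA, had opposite signs, at 0.38 ± 0.085 and -0.38 ± 0.091. Of 71 genes listed for the mitochondrial ribosome by symbol, 43 starting with Mrpl and 28 with Mrps, 1 was called higher and 6 lower (9.86%). This stands beside 10.2% of all named genes and 17.5% of those at or above the median level, where 68 of the 71 lay. Mrpl24 differed by 0.21, Mrpl42 by -0.37, Mrpl34 by -0.34, Mrpl36 by -0.32, and Mrpl4 and Mrps2 by -0.30. The remaining call was Mrpl22, at -0.37 ± 0.11 (SE) with a limma adjusted p of 0.0481. With each mouse left out in turn, Mrpl22 and Mrpl24 were called in 2 of 12 fits each and Mrps2 in 8. Mrpl42, Mrpl34, Mrpl36 and Mrpl4 were called in all 12. Of 10 subunit genes encoded in mitochondrial DNA itself, a list added after the files were seen, limma called 0, 0 had an unadjusted p under 0.05, and the differences ran from -0.09 to 0.13. Apart from ND6 at 9.70, their WT means lay between 12.33 and 13.07, near the 13.19 of the hepatocyte marker Alb. Whether such bright probes can still show a difference was not tested.

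Of the genes that pass electrons from fatty acid oxidation into the chain, Etfdh and Etfb were called lower. Etfdh, which hands these electrons to ubiquinone, ran from 10.44 through a median of 10.50 to 10.64 in WT and from 9.36 through 9.46 to 9.65 in Ppara KO. Its difference was -1.04 ± 0.068 (SE, n = 6 each), 2.05-fold lower, with a limma adjusted p of 1.71e-07. Etfb, a subunit of the flavoprotein that feeds Etfdh, differed by -0.82 ± 0.066 with a limma adjusted p of 1.48e-06. The genotypes did not overlap in either gene. They were the 2 called (28.6%) among 7 measured genes that pass electrons towards ubiquinone, directly or through Etfdh, outside complexes I and II. This stands beside 10.2% of all named genes and 17.5% of those at or above the median level, where all 7 lay. Etfa, the partner of Etfb, differed by -0.08 and was not called.

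Of 13 tricarboxylic acid cycle genes, Cs, the citrate synthase, fell by 0.40 (SE 0.073), Dlst fell by 0.30 (SE 0.063) and Idh2 rose by 0.29 ± 0.080 (n = 6 per genotype). They made 23.1% called, beside 10.2% of all named genes and 17.5% of those at or above the median level, where all 13 lay. With each mouse left out in turn, Cs and Dlst were called in all 12 fits and Idh2 in 5. Of 10 carriers and uncoupling genes, 4 were called, all higher (40.0%): Nnt, Slc25a13, Vdac2 and Vdac3. Of all named genes 10.2% were called in either direction and 4.46% higher. Of those at or above the median level, where 8 of the 10 lay, 17.5% were called in either direction. The Vdac3 call was lost without WT mouse 2 and without WT mouse 6. Nnt, the transhydrogenase that uses the proton gradient to make NADPH, ran from 7.02 through a median of 7.07 to 7.21 in WT and from 7.94 through 8.16 to 8.40 in Ppara KO. The gap between the genotypes was wide, with a difference of 1.05 ± 0.084 (SE, n = 6 each), 2.07-fold higher, and a limma adjusted p of 1.48e-06. Nnt is disrupted in the C57BL/6J substrain. The labels give C57Bl/6 for both genotypes without a substrain, and the part of substrain in this difference was not tested. Of all 29 genes called in these lists, 19 were called in each of the 12 fits with a mouse left out, and 6 kept their call without WT mice 1, 3 and 5: Etfdh, Etfb, Nnt, Cs, Mrpl42 and Ppargc1b.

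Some members are measured less securely than others. Of 11 members with several clusters, the brightest cluster, which was used, sat among clusters of another chromosome for 4, Atp5g2, Atp5h, Cox5b and Cycs, where a near-identical copy could share its probes. The cluster among genes of the member's own chromosome gave 0.04 ± 0.057 for Atp5g2, 0.33 ± 0.16 for Atp5h and -0.39 ± 0.13 for Cox5b (SE, n = 6 each), with limma adjusted p-values over all clusters of 0.821, 0.318 and 0.112. For Cycs such clusters gave -0.14 ± 0.076, with 0.372, and -0.31 ± 0.10, with 0.106. For 2 further members, Cox7b and Ndufa11, the cluster used had neighbours of mixed chromosomes. Their clusters among genes of the own chromosome gave 0.01 ± 0.19 and -0.11 ± 0.11, with limma adjusted p-values over all clusters of 0.987 and 0.677. Another 8 gene symbols of the family, among them Cox6c, Ndufb2 and Uqcr10, were held only by clusters with several symbols. The 10 such clusters that held a symbol of the family differed by -0.24 to 0.23, and 0 were called with adjustment over all clusters, where 5.24% of clusters were called.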

How the data were processed

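Liver RNA of 6 WT and 6 Ppara KO mice was measured on 1 array each. The authors deposited log2 values. RMA and Partek are named in the submitters' processing notes, without versions. RMA equalises the arrays' distributions, which hides a shift common to most genes, and it compresses differences of dim genes. The genome build was not given in the sources used here. Depth does not apply to arrays; their number limits the precision.

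Of 41345 clusters, 23521 had 1 symbol in the platform annotation, 1814 several, and 16010 were not listed. The brightest cluster stood for each of 22180 genes, and all 93 members were found in RefSeq (GRCm38.p6), used for gene order and promoters. The 2 candidate symbols marked ps or Rik were left out. The genotypes were compared with limma 3.58.1 under R 4.3.3 (lmFit, eBayes, 2-sided, 1 mean per genotype, no covariate), and p-values were adjusted by Benjamini-Hochberg. The fit was tested on simulated data. Intervals are 95% limma intervals.

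Members and lists were chosen with earlier results of these data known. Genes named were the called members, those with an adjusted p of up to 0.10, and in each complex the 3 brightest and the 2 with the largest difference not called. Tissue forms, Cycs, the Sdh subunits and Ppara were added, and up to 6 called genes of each other list. Ucp1, Dbp, Higd1a, Mrpl22, Etfa and the marker genes were named outside this rule, after their values were seen. Same-numbered mice did not deviate together, with correlations from -0.047 to 0.043, so the numbers were not taken as pairs. Alternatives covered the variance prior, array weights, normalization, centring, dim genes, the choice of cluster, the adjustment, the threshold, a replicate block and mice left out.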

Additional observations from a re-analysis of the deposited data

Results flagged for a closer look

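Among 152 groups of 6 mice, 1 for each named gene and genotype, 4 had a lowest or highest mouse whose gap to the nearest other mouse, divided by the range of the group, was above Dixon's critical value for 6 samples at the 95% level. Chance alone puts about 5% of groups beyond this value. Atp5h was low in Ppara KO mouse 3, at 10.36. Atp5j2 was high in WT mouse 5, at 4.75. Ndufa4l2 was low in WT mouse 4, at 4.20. Mrpl42, of the mitochondrial ribosome, was high in WT mouse 2, at 6.28. Of these genes Mrpl42 was called, and leaving out each mouse in turn kept that call.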

How the results depend on the processing

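Calls among the 81 subunit genes were few under each of the 22 alternatives. Called lower were 4 with a variance prior that follows the level (Cox6b1 and Cox8a gained), 5 with dim genes, those under the median level, left out (Cox6b1, Cox8a and Ndufv3 gained), and 1, Ndufa6, without WT mice 1, 3 and 5, beside 2 as reported. Called higher were 2 with dim genes left out (Atp5l gained) and 0 with adjustment over all clusters, with the replicate block, without WT mice 1, 3 and 5, and at an adjusted p under 0.01, beside 1 as reported. With each mouse left out in turn, 0 to 1 were called higher and 2 to 3 lower, the third without WT mouse 6. The 3 assembly factor calls became 2 (Ndufaf6 lost) with the replicate block, with adjustment over all clusters and at an adjusted p under 0.01, 4 (Ndufaf7 gained) with the other variance prior and with dim genes left out, 2 to 3 with a mouse left out, and 0 without WT mice 1, 3 and 5. The median subunit difference stayed between -0.03 and 0.01, above 0 only without WT mouse 1 and without WT mice 1, 3 and 5. All named genes gave 2268 calls, 2802 with dim genes left out and 2681 with the other variance prior. They gave 1599 with adjustment over all clusters, 1008 without WT mice 1, 3 and 5 and 1070 at an adjusted p under 0.01. The other lists gave 29 calls, 40 with dim genes left out, 34 with the other variance prior and 31 with quantile normalization again. They gave 18 with the replicate block, 6 without WT mice 1, 3 and 5, 12 at an adjusted p under 0.01, and 21 to 28 with a mouse left out. Leaving out 3 WT mice also leaves fewer samples, and the cause of lost calls was not tested.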
